A study of Mus musculus with 6 samples.

Results

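The 10 genes described here belong to the integrated stress response and to the amino acid supply it controls: Atf4, Ddit3, Ppp1r15a, Trib3, Chac1, Asns, Psat1, Phgdh, Shmt2 and Slc7a11. They were chosen as a pathway set, with earlier results of these data known. Every non-control probe whose RefSeq accession maps to one of these symbols was taken. This gave 13 of the 55681 probes on the array. Of these, 9 genes with 12 probes were among the 22630 genes and 31802 probes bright enough to be tested, and Slc7a11 was not. Values came from 6 two-colour arrays of mouse bone marrow hematopoietic stem cells (HSCs). The samples were polyI:C-treated Cdk6-/- HSCs (n = 3) and untreated Cdk6-/- HSCs (n = 3), both labelled with Cy5, and a polyI:C-treated and an untreated pool of sorted wild-type HSCs, labelled with Cy3. PolyI:C mimics viral double-stranded RNA and induces interferon, and CDK6 is a cell cycle kinase that the study examined in stem cell activation. Each array set 1 Cdk6-/- sample against the pool of the same treatment, so each pool is 1 wild-type sample hybridised 3 times, whose spread is a technical one. Dyes were never swapped, so a probe's dye bias cannot be told apart from a genotype difference, but it cancels in the difference between the ratios of treated and untreated samples. The dose and time of polyI:C, the ages of the mice, the sort gates and the number of mice in a sample or pool are not stated in the labels.

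In the integrated stress response, kinases that sense double-stranded RNA, amino acid shortage, misfolded protein or heme shortage phosphorylate the translation factor eIF2. Bulk translation then slows while the mRNA of the transcription factor ATF4 is translated more, so that ATF4 activity is set largely at the protein level, which arrays do not measure. ATF4 and its partner CHOP (the product of Ddit3) raise genes for amino acid synthesis and uptake, tRNA charging, and feedback. Double-stranded RNA is itself a ligand of the eIF2 kinase PKR, encoded by the interferon-induced gene Eif2ak2.

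ATF4 binds with C/EBP partners to composite elements of the form TGATGNAA (TTNCATCA on the opposite strand), where N is any base. RefSeq promoter windows on GRCm38.p6, from 250 bases before to 50 bases after the annotated start, held this motif on either strand in 4.51% of 27025 genes, and all 10 members had a window. The motif was found in 4 of the 10 windows: those of Asns, Chac1, Slc7a11 and Trib3, the match in Trib3 lying after the start. The stretches around the matches of the other 3 genes are printed because they show where the ATF4-type element sits in 3 genes with different values below: Chac1, Asns and the undetected Slc7a11. Each is written 5′ to 3′ on the strand of its gene, with the motif in capitals: Chac1 at chr2:119351023-119351082 (plus strand), Asns at chr6:7693210-7693258 (minus strand) and Slc7a11 at chr3:50443646-50443705 (minus strand, 2 matches facing each other).
Chac1: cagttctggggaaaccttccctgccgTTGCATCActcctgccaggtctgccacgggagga
Asns: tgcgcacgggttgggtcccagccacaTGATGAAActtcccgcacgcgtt
Slc7a11: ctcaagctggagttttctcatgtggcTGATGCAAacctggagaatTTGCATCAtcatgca
With -1 as the base before the start, the first base of the match was at -193 in Chac1 and at -23 in Asns, and in Slc7a11 the matches began at -66 and -47. The start used for Slc7a11 is that of RefSeq's one window for the gene, which lies inside the gene span given further on and not at its 5′ end. A match of these letters is a description of the window, not evidence of binding.

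All 14 HSC markers fixed for this work, among them Kit, Ly6a and Procr, were above background in Cy5 on all 6 arrays, and so were all 12 granulocyte markers. The HSC list also holds Cd48 and Flt3, whose absence is used to sort HSCs. A lower value of these is therefore not a lower HSC signal. Ratios of the 3 untreated arrays correlated with each other over genes at 0.487 to 0.544. PolyI:C arrays 1 and 2 correlated at 0.56, while polyI:C array 3, alone on its slide, correlated with them at 0.132 and 0.216 and had 76.5% of Cy5 spots above background, against 47.0 to 55.7% on the other 5. Xist, the RNA that silences an X chromosome in female cells, was far below the pool on both arrays numbered 3, with a log2 ratio of -3.42 on polyI:C array 3 and -3.98 on untreated array 3, and 0.42 to 1.87 on the other 4. Array numbers follow the order of deposition. The series calls the samples of a group biological replicates. Calls are also given without both arrays low in Xist.

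Signal levels are log2 intensities after normalization and are not compared between probes. Log2 ratios are Cdk6-/- over wild-type pool, each member counted once by its brightest probe, and a gene was called at a limma adjusted p under 0.05 over all 22630 genes. Among the 9 members tested, 1 (Chac1) was called lower in untreated Cdk6-/- HSCs, where 13.0% of all genes were called. With polyI:C no member's ratio was called by limma, 5 had an unadjusted p under 0.05, and 0.968% of all genes were called. The difference between the ratios, polyI:C minus untreated, was called for 1 member (Chac1, higher), with 1.79% of all genes called. The polyI:C response within Cdk6-/- samples was called for no member by limma, with 4 members at an unadjusted p under 0.05 and 0.163% of all genes called. The median log2 ratio of the 9 members by brightest probe was 0.59 with polyI:C and 0.26 untreated, against -0.02 and -0.05 over all genes. The polyI:C median was the value of Atf4 itself. Its second probe gave 0.07 with polyI:C and -0.26 untreated, so these medians depended on the choice of probe. With each array centred on its median in place of loess, the median over all genes was 0.21 with polyI:C and 0.30 untreated, and members called numbered 5 and 6. Of all 22630 genes, 2604 were called there in the polyI:C ratio and 6206 in the untreated ratio, so calls by median centring below stand among many more. Tests hold the spread between Cdk6-/- samples and not that between wild-type mice.

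**Figure D1:**
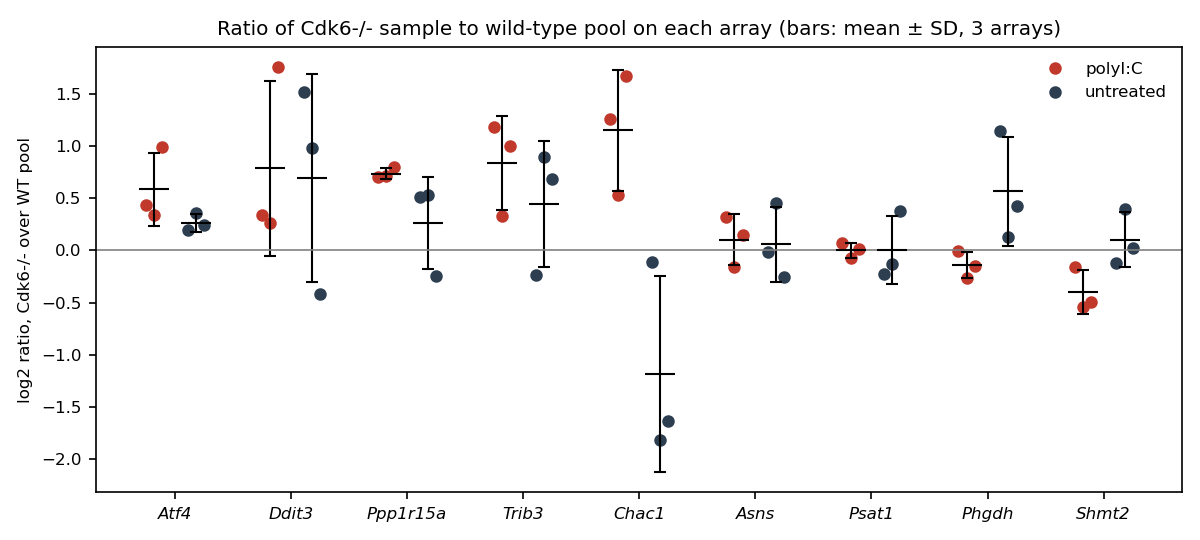
Log2 ratio of Cdk6-/- sample to wild-type pool on each array for the 9 members tested (points; black marks are mean ± SD of 3 arrays; red polyI:C, dark blue untreated). Chac1 lies at 0.53 to 1.67 on polyI:C arrays and at -1.81 to -0.11 on untreated arrays, while the ratios of Asns lie between -0.26 and 0.45 over the 6 arrays.

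Chac1, on chromosome 2 (119351242 to 119354326), encodes a cytosolic enzyme that degrades glutathione and is induced by ATF4 and CHOP. Its log2 ratio was 1.26, 0.53 and 1.67 on polyI:C arrays 1, 2 and 3, and -0.11, -1.81 and -1.64 on untreated arrays 1, 2 and 3. Thus every polyI:C-treated Cdk6-/- sample was above its pool and every untreated one below, with untreated sample 1 close to its pool. The difference, polyI:C minus untreated, was 2.34 (SE 0.46, 95% interval 1.32 to 3.36, 5.06-fold), and passed the test (limma adjusted p = 0.0349). The untreated ratio was -1.19 (SE 0.32, 0.439-fold, SD 0.94, n = 3, limma adjusted p = 0.0383). The polyI:C ratio was 1.15 (SE 0.32, 2.22-fold, SD 0.58, n = 3) and did not pass (limma adjusted p = 0.149), but was 1.36 and called with median centring (limma adjusted p = 0.00815).

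The levels show on which side the ratio of Chac1 moved. In Cdk6-/- samples its log2 level was 10.57, 9.56 and 10.52 with polyI:C, against 9.25, 7.63 and 7.63 untreated. The treated samples were all above the untreated ones, by 2.05 on average (SE 0.51, 95% interval 0.90 to 3.20, 4.14-fold), which did not pass the test over all genes (limma adjusted p = 0.186). In the wild-type pools the level was 9.31, 9.04 and 8.85 with polyI:C, against 9.36, 9.44 and 9.27 untreated, so the pool hybridisations overlapped and the pools differed by 0.817-fold. Within slide 1, which held 1 polyI:C and 2 untreated arrays, the difference of ratios was 2.13, and within slide 2, with 1 array of each, it was 2.34. In these bulk samples, fewer expressing cells and less RNA per cell cannot be told apart.

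The Chac1 calls depended on the arrays and on the processing. Without both arrays low in Xist the difference of ratios was 1.86 (limma adjusted p = 0.203) and the untreated ratio -0.96 (limma adjusted p = 0.21). In that difference, and in the difference with slide as a fixed block, limma called 0 of all 22630 genes (4553 and 4439 at an unadjusted p under 0.05). A call lost there is therefore not particular to Chac1. With any 1 array left out, the difference stayed between 2.03 and 2.88 and was called only without untreated array 1. The untreated ratio stayed between -1.73 and -0.87 and was called without untreated array 1 and without polyI:C array 2. Slide as a fixed block ended the call of the difference (2.22, limma adjusted p = 0.131), and slide as a random block that of the untreated ratio (limma adjusted p = 0.0518). The processed signals ended both (limma adjusted p = 0.109 for the difference and 0.0798 untreated), as did testing without a filter on dim probes (limma adjusted p = 0.0802 and 0.0748).

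Most marker genes of granulocytes and monocytes had ratios that ran in the same direction as that of Chac1 in both treatments. Those of B cells and stroma did so in the untreated ratio and in the difference. Their median polyI:C ratio was 0.05 for B cells and -0.10 for stroma, with 5 of 9 and 3 of 9 above 0. Most erythroid markers ran the other way in the difference. The median log2 ratio of the 12 granulocyte markers was 0.57, 0.62 and 1.34 on polyI:C arrays 1, 2 and 3, and -0.66, -0.27 and -1.52 on untreated arrays 1, 2 and 3. Of the 12, 4 were called higher in the difference of ratios and 4 lower in the untreated ratio. Over all 22630 genes, 361 were called higher in the difference and 147 lower in the polyI:C ratio. In the untreated ratio 691 of all genes were called higher and 2248 lower. Of the 9 B cell markers measured, 2 were called higher in the difference and 7 lower in the untreated ratio. The 9 stromal markers gave the same counts, and of 9 monocyte markers 1 was called higher in the difference and 2 lower in the untreated ratio. Of the 12 erythroid markers, 10 had a difference of ratios below 0 (median -0.49). None of them was called by limma in the difference, with 2 at an unadjusted p under 0.05, and 3 were called lower in the polyI:C ratio and 3 in the untreated ratio. The median difference was 0.24 for megakaryocyte markers, 0.19 for T and NK cell markers and -0.02 for HSC markers. Of the 10 megakaryocyte markers, 2 were called higher in the difference, and 1 higher and 3 lower in the untreated ratio. No T and NK cell or HSC marker was called by limma in the difference, with 0 and 1 at an unadjusted p under 0.05. In the untreated ratio 1 gene of the HSC list was called lower. The lowest of that list there was Cd48, at -0.72, -0.24 and -1.61 on untreated arrays 1, 2 and 3. Levels were also read by channel. The signal summed over the granulocyte markers, given as the log2 of the sum, was 17.66, 17.65 and 18.02 in Cdk6-/- samples with polyI:C. It was 18.11, 18.22 and 17.65 in untreated Cdk6-/- samples, so these groups overlapped. In the pools that sum was 16.84 to 17.31 with polyI:C and 18.55 to 19.03 untreated, and each measured granulocyte, monocyte, B cell and stromal marker was above background on at least 1 array. The part of these cells in the Chac1 result was not tested.

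Atf4, on chromosome 15 (80255184 to 80257545), encodes the central transcription factor of the response. The log2 level of its brightest probe was 14.73, 14.16 and 14.28 in Cdk6-/- samples with polyI:C, against 14.46, 14.56 and 14.61 untreated. Pool levels were 14.29, 13.83 and 13.30 with polyI:C, against 14.26, 14.19 and 14.38 untreated. Groups overlapped in both genotypes, and the response in Cdk6-/- samples was -0.15 (SE 0.31, 95% interval -0.86 to 0.55, limma adjusted p = 0.936), a direction that turned to 0.047 without normalization between arrays. The log2 ratio was 0.44, 0.34 and 0.99 with polyI:C and 0.20, 0.36 and 0.24 untreated. It was above 0 on all 6 arrays and called in neither group (limma adjusted p = 0.191 and 0.375). With median centring it was 1.53 with polyI:C and 1.20 untreated, and both were called (limma adjusted p = 0.000298 and 0.00113). The second Atf4 probe did not share this: its ratio was 0.15, -0.05 and 0.11 with polyI:C, and -0.05, -0.13 and -0.60 untreated. The genotype difference of Atf4 thus depended on the probe, while the difference of ratios was 0.33 by the second probe and 0.32 by the brightest, called by neither.

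Ddit3, on chromosome 10 (127290793 to 127296291), encodes CHOP, a partner of ATF4 that favours cell death under lasting stress. Its log2 ratio was 0.34, 0.26 and 1.75 on polyI:C arrays 1, 2 and 3, and 1.51, 0.98 and -0.41 on untreated arrays 1, 2 and 3. The outer values came from the arrays numbered 3, both low in Xist: highest of the polyI:C group and lowest of the untreated group. The untreated ratio of 0.69 (SE 0.37) was not called with all arrays (limma adjusted p = 0.25), but was 1.25 and called without both of them (limma adjusted p = 0.032). The difference of ratios was 0.09 (SE 0.52, 95% interval -1.07 to 1.25) and -0.95 without them (limma adjusted p = 0.96 and 0.178). With median centring the ratio was 1.07 with polyI:C and 1.13 untreated, and both were called (limma adjusted p = 0.0478 and 0.0206). In Cdk6-/- samples the log2 level was 10.81, 10.73 and 11.34 with polyI:C, against 12.31, 12.01 and 9.69 untreated. In the pools it was 10.47, 10.47 and 9.59 with polyI:C, against 10.80, 11.03 and 10.11 untreated, with overlap in both genotypes.

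Ppp1r15a and Trib3 are feedback genes. Ppp1r15a, on chromosome 7 (45522917 to 45526268), encodes GADD34, which directs a phosphatase to eIF2 and so restores translation. Its log2 level was 12.02, 12.29 and 12.55 in Cdk6-/- samples with polyI:C, against 13.23, 13.20 and 12.62 untreated. Pool hybridisations gave 11.32, 11.58 and 11.75 with polyI:C, against 12.72, 12.68 and 12.87 untreated. The treated samples lay below the untreated ones in both genotypes without overlap, by 0.602-fold in Cdk6-/- samples (log2 -0.73, SE 0.33, limma adjusted p = 0.504) and by 0.434-fold in the pools. Ppp1r15a was the 1 member of 9 whose treated values all lay below the untreated values in each genotype. Over all 22630 genes, 1736 lay lower without overlap in Cdk6-/- samples and 5219 in the pools. The log2 ratio was 0.70, 0.71 and 0.80 with polyI:C, and 0.51, 0.53 and -0.25 untreated. The polyI:C ratio of 0.74 (SE 0.19, SD 0.06, n = 3) was not called (limma adjusted p = 0.127). With median centring it was 1.20 with polyI:C and 0.91 untreated, and both were called (limma adjusted p = 0.00289 and 0.0106).

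Trib3, on chromosome 2 (152337425 to 152344060), encodes a pseudokinase that is induced by ATF4 and CHOP and holds them back. Its log2 ratio was 1.18, 0.33 and 0.997 with polyI:C, and -0.24, 0.89 and 0.68 untreated, so the groups overlapped. The polyI:C ratio of 0.84 (SE 0.25, SD 0.45, n = 3) was above 0 on every array and was not called (limma adjusted p = 0.17). With median centring it was 1.07 with polyI:C and 0.78 untreated, and both were called (limma adjusted p = 0.0139 and 0.0376). In Cdk6-/- samples the log2 level was 10.88, 9.67 and 9.70 with polyI:C, against 8.53, 10.15 and 9.95 untreated. Treated sample 1 was the highest and untreated sample 1 the lowest. The response of 0.54 (SE 0.52, limma adjusted p = 0.827) ranged from 0.03 to 0.84 with 1 array left out. Pool levels were 9.69, 9.34 and 8.70 with polyI:C, against 8.76, 9.26 and 9.27 untreated, again with overlap.

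**Figure D2:**
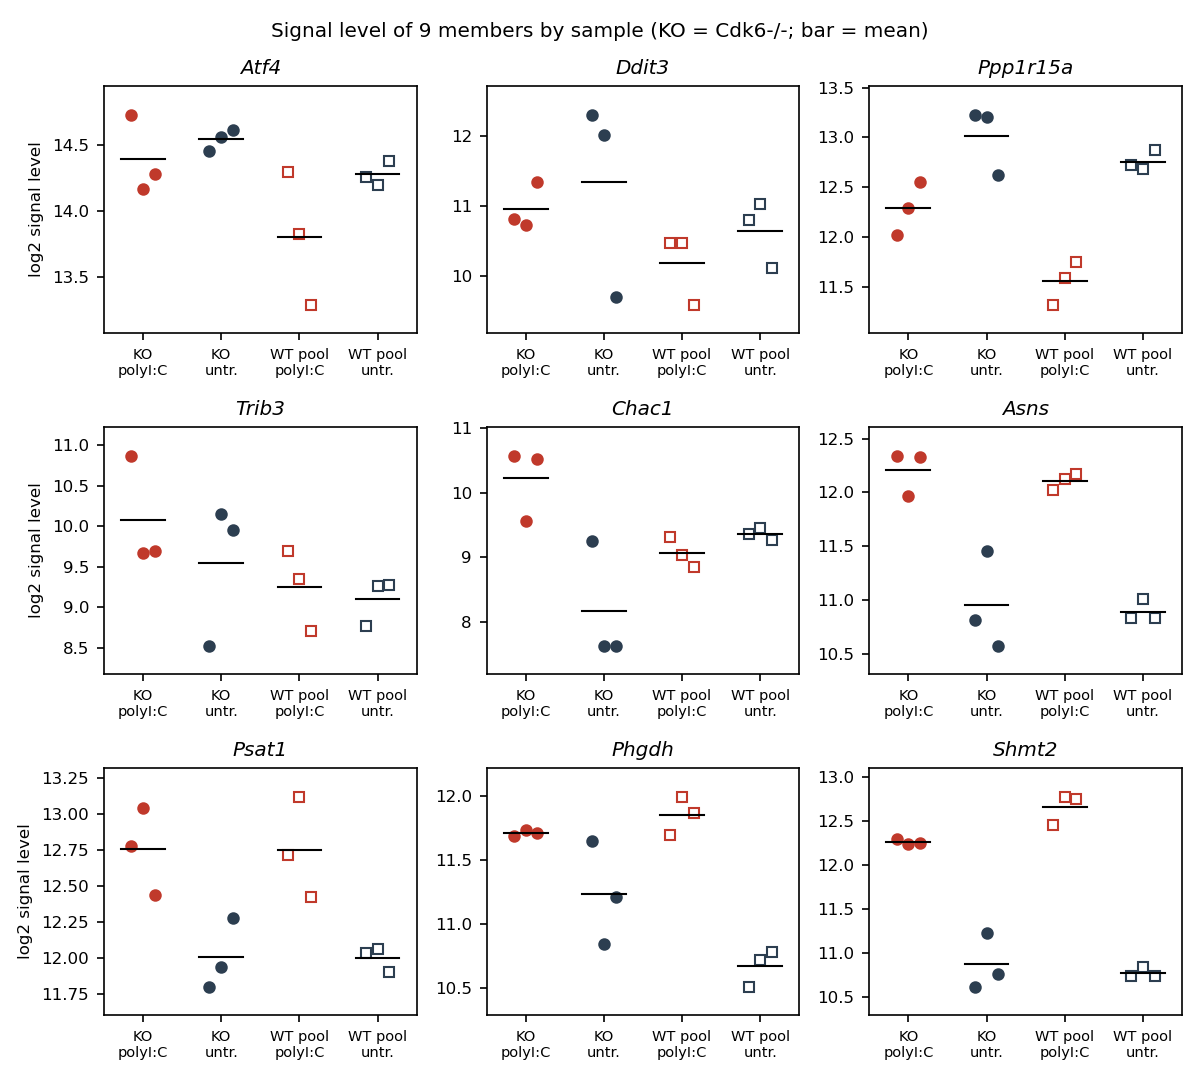
Log2 signal level of the 9 members tested in each sample (filled circles, Cdk6-/- samples; open squares, hybridisations of 1 wild-type pool per treatment; red polyI:C, dark blue untreated; bars are means; each panel has its own axis). Asns, Psat1, Phgdh and Shmt2 lie higher with polyI:C in both genotypes without overlap, Ppp1r15a lies lower, and Chac1 is higher in every treated than in any untreated Cdk6-/- sample, while its pool hybridisations lie between 8.85 and 9.44 with polyI:C and untreated values overlapping.

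The 4 enzymes shared a pattern of levels that the stress factors did not show. For Asns, Psat1, Phgdh and Shmt2, every treated sample was above every untreated sample in Cdk6-/- HSCs, and every treated hybridisation above every untreated one in the pools. With Chac1 this held for 5 of the 9 members in Cdk6-/- samples, where it held for 9.15% of all genes, and for 4 of 9 in the pools, where it held for 19.2% of all genes. Pools and Cdk6-/- samples were measured on the same arrays and normalized together, so the pair of counts is not independent, and the pools stand for 1 sample per treatment. The members were chosen with earlier results of these data known, so the counts are a description and not a test of the set. None of the 4 passed the test of the response in Cdk6-/- samples. Within slides 1 and 2 the response was 1.60 and 1.01 for Shmt2, 1.65 and 0.50 for Asns, 0.74 and 1.11 for Psat1 and 0.25 and 0.89 for Phgdh. Over the 4 arrays not low in Xist the response was 1.34, 1.02, 1.05 and 0.46 in the same order of genes. Marker levels differed with polyI:C as well. Without overlap, 7 of 10 megakaryocyte markers were higher in each genotype, and 5 of 10 T and NK cell markers were higher in Cdk6-/- samples and 6 of 10 in the pools. Lower without overlap were 7 of 12 erythroid markers in Cdk6-/- samples and 6 of 12 in the pools, 5 of 9 B cell markers and 9 of 9, 5 of 9 stromal markers and 7 of 9, 2 of 9 monocyte markers and 8 of 9, and 1 of 12 granulocyte markers and 11 of 12, in the same order of groups. Some markers went the other way: 2 erythroid markers were higher in Cdk6-/- samples and 4 in the pools. In the pools 1 megakaryocyte marker and 2 T and NK cell markers were lower. Of the 14 genes of the HSC list, 2 were higher (Ly6a and Cd48) and 5 lower in Cdk6-/- samples, and 5 were higher and 6 lower in the pools. Over all 22630 genes, 1736 were lower without overlap in Cdk6-/- samples and 5219 in the pools. The part of these cells in the enzyme levels was not tested.

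Shmt2, on chromosome 10 (127517123 to 127522444), encodes the mitochondrial serine hydroxymethyltransferase, which turns serine into glycine and feeds one-carbon metabolism. Its log2 level was 12.29, 12.24 and 12.25 in Cdk6-/- samples with polyI:C, against 10.62, 11.23 and 10.76 untreated. Pool hybridisations gave 12.46, 12.78 and 12.75 with polyI:C, against 10.73, 10.84 and 10.74 untreated. The difference was 2.62-fold in Cdk6-/- samples (log2 1.39, SE 0.31, 95% interval 0.68 to 2.10, unadjusted p = 0.00162, limma adjusted p = 0.147), and 3.71-fold in the pools, the largest there among the members by brightest probe. The ratio was -0.16, -0.54 and -0.50 with polyI:C, and -0.12, 0.39 and 0.02 untreated, so the groups did not overlap, with a narrow gap between -0.16 and -0.12. The difference of -0.50 (SE 0.25, 95% interval -1.06 to 0.06) was not called (limma adjusted p = 0.361), and with each array centred on its median the polyI:C ratio turned to 0.18.

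Asns, on chromosome 6 (7675165 to 7693209), encodes asparagine synthetase, a textbook ATF4 target. Its log2 level was 12.34, 11.96 and 12.32 in Cdk6-/- samples with polyI:C, against 10.82, 11.46 and 10.58 untreated. In the pools the level was 12.03, 12.13 and 12.17 with polyI:C, against 10.83, 11.01 and 10.84 untreated. The difference was 2.39-fold in Cdk6-/- samples (log2 1.26, SE 0.35, 95% interval 0.47 to 2.04, unadjusted p = 0.00544, limma adjusted p = 0.232) and 2.32-fold in the pools. The difference of ratios was 0.04, with a 95% interval of -0.56 to 0.65 (limma adjusted p = 0.963).

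Phgdh and Psat1 encode the enzymes of the first and the second step of serine synthesis. Phgdh, on chromosome 3 (98313171 to 98339969), had log2 levels of 11.68, 11.74 and 11.71 in Cdk6-/- samples with polyI:C, against 11.65, 10.84 and 11.21 untreated. The pools gave 11.69, 12.00 and 11.87 with polyI:C, against 10.51, 10.72 and 10.78 untreated. Untreated Cdk6-/- sample 1 was almost as high as the treated ones, and the difference was 1.39-fold in Cdk6-/- samples (log2 0.48, SE 0.33, limma adjusted p = 0.719) and 2.27-fold in the pools. Its log2 ratio was -0.01, -0.26 and -0.15 with polyI:C, and 1.14, 0.12 and 0.43 untreated. All treated ratios were below 0 and all untreated ratios above 0, but the difference of -0.70 (SE 0.30, 95% interval -1.36 to -0.05) was not called (limma adjusted p = 0.265), and with each array centred on its median the polyI:C ratio turned to 0.30 while the untreated ratio, 0.56 otherwise (limma adjusted p = 0.105), was 0.98 and called (limma adjusted p = 0.00796). The second Phgdh probe had a difference of -0.81 (SE 0.26, limma adjusted p = 0.137 over probes), in the same direction.

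Psat1, on chromosome 19 (15905123 to 15925059), had log2 levels of 12.78, 13.05 and 12.44 in Cdk6-/- samples with polyI:C, against 11.80, 11.94 and 12.28 untreated. In the pools it was 12.71, 13.12 and 12.42 with polyI:C, against 12.03, 12.06 and 11.90 untreated. Its ratio stayed near 0 in both treatments, at 0.07, -0.08 and 0.01 with polyI:C and -0.23, -0.13 and 0.38 untreated. The differences with polyI:C were 1.68-fold in Cdk6-/- samples (log2 0.75, SE 0.33, limma adjusted p = 0.477) and 1.69-fold in the pools. The second, dimmer Psat1 probe gave larger differences, 1.53 on the log2 scale in Cdk6-/- samples (SE 0.33, limma adjusted p = 0.12 over probes) and 1.98 in the pools. That probe's ratio was -0.44, -0.45 and -0.39 with polyI:C, and -0.07, -0.02 and 0.15 untreated, so the near-zero ratio of Psat1 with polyI:C depended on the probe.

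**Figure D3:**
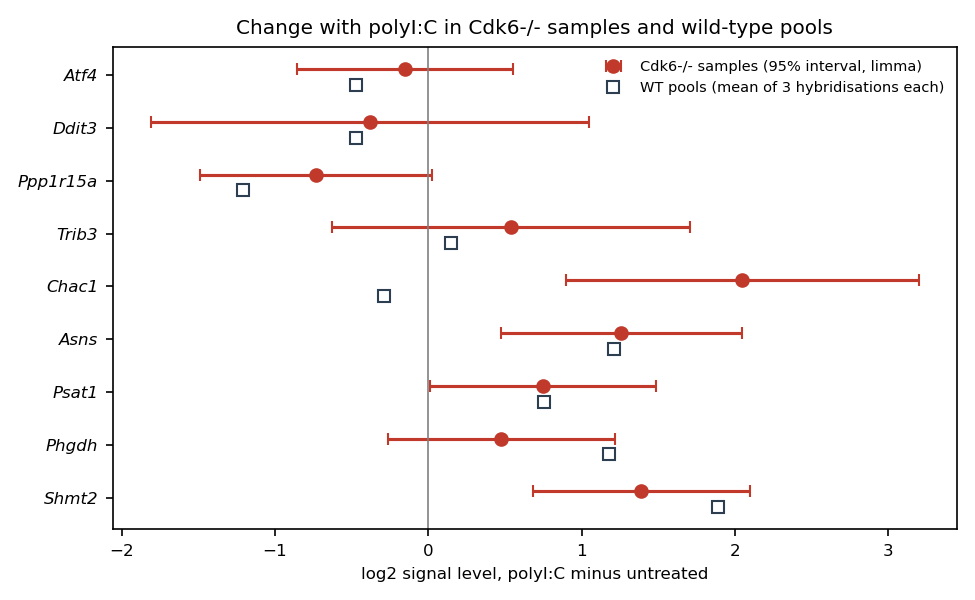
Change of the log2 signal level with polyI:C, polyI:C minus untreated, for the 9 members tested (red circles, Cdk6-/- samples with the 95% interval of the limma fit; open squares, 1 wild-type pool per treatment, mean of 3 hybridisations, with no interval). Chac1 is at 2.05 in Cdk6-/- samples and at -0.29 in the pools, the 4 enzymes lie right of 0 in both, and Ppp1r15a lies left of 0 in both.

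Slc7a11, on chromosome 3 (50364936 to 50499087), encodes the cystine transporter subunit xCT, which supplies cysteine for glutathione. Its 1 probe was not well above background in either channel on any array. The median Cy5 signal of the spot was 59 to 82 on polyI:C arrays and 59.5 to 64 on untreated arrays, over backgrounds of 49 to 56. In Cy3 it was 33 to 41 and 35 to 42.5, over backgrounds of 18 to 23. No fold change is given, since both genotypes and both treatments lay below the detection limit of this probe.

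The other genes of the pathway were read from 7 lists. Of 15 eIF2 kinases and regulators, none was called by limma in the polyI:C ratio or in the response of Cdk6-/- samples, with 3 and 2 at an unadjusted p under 0.05. In the untreated ratio, where 13.0% of all genes were called, 1 was called higher and 2 lower. Eif2ak2, the double-stranded RNA sensor PKR, was the higher one (log2 0.67, SE 0.17, limma adjusted p = 0.0271). Its log2 ratio was -0.31, -0.56 and -0.50 with polyI:C, and 0.54, 0.59 and 0.89 untreated. The difference of ratios, -1.13 (SE 0.24), was the 1 call of the list there (limma adjusted p = 0.0454), with 1.79% of all genes called. Its level with polyI:C was 1.51-fold that of untreated Cdk6-/- samples (limma adjusted p = 0.695), and 3.32-fold that of the untreated pool. Without both arrays low in Xist neither call of Eif2ak2 passed (untreated 0.56, difference -1.001, limma adjusted p = 0.0903 and 0.153). Its difference was not called with slide as a fixed block (limma adjusted p = 0.139), median centring (0.0804), the processed signals (0.0659) or any 1 array left out. In the difference, limma called 0 of all genes with slide as a fixed block and without both arrays low in Xist. The lower ones in untreated HSCs were Ppp1r15b, the constitutive partner of the eIF2 phosphatase (log2 -0.87, SE 0.18, limma adjusted p = 0.0117), and Gcn1, which activates the amino acid sensor GCN2 (log2 -0.88, SE 0.20, limma adjusted p = 0.0188). Both passed without those arrays (limma adjusted p = 0.0491 and 0.034), and with median centring neither did (-0.46 and -0.28, limma adjusted p = 0.112 and 0.347). Gcn1 was not called with the processed signals (limma adjusted p = 0.0599) or the mean over probes (-0.48, limma adjusted p = 0.0755). The other 3 eIF2 kinases were called in no comparison: in the untreated ratio Eif2ak1 was at -0.53, Eif2ak3 at -0.40 and Eif2ak4 at -0.07 (limma adjusted p = 0.0554, 0.211 and 0.867).

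Of 18 other ATF4 and CHOP targets tested, 1 was called higher and 3 lower in the untreated ratio, 1 higher in the polyI:C ratio, 1 lower in the difference and 1 higher in the response of Cdk6-/- samples. Over all genes, 13.0%, 0.968%, 1.79% and 0.163% were called, in the same order of comparisons. Atf5, a transcription factor related to ATF4, was the call in the response. Its log2 level in Cdk6-/- samples was 12.99, 12.53 and 13.08 with polyI:C, against 10.89, 10.73 and 10.42 untreated. The response was 2.19 (SE 0.32, 4.55-fold, limma adjusted p = 0.0496), and the pools differed by 2.27-fold. Ddit4, which restrains mTORC1, had a polyI:C ratio of 1.05 (SE 0.19, limma adjusted p = 0.0369). Its level with polyI:C was 0.804-fold that of untreated Cdk6-/- samples, and 0.425-fold that of the untreated pool. Gpt2, a mitochondrial alanine aminotransferase, had log2 levels of 7.95, 8.18 and 7.69 in untreated Cdk6-/- samples, where it was above background, and was not well above background in the untreated pool on any array (measured mean 6.65). Its measured untreated log2 ratio was 1.29 (limma adjusted p = 0.0027), and 2.89 with the processed signals, so its size depended on the handling of dim signal. As bounds that were not tested, its signal was at least 2-fold higher in untreated Cdk6-/- HSCs than in their pool, and the polyI:C pool exceeded the untreated pool at least 2.21-fold. Such bounds set the bright mean against the pool's floor, the higher of the dim signal and the lowest signal above background on each array, and are open to dye bias. With polyI:C its ratio was -0.02, -0.29 and 0.23, and the difference of ratios was called lower (limma adjusted p = 0.0367). Cebpg, a C/EBP partner of ATF4, and Nupr1, a stress-induced chromatin protein, were lower in untreated Cdk6-/- HSCs, by log2 -1.07 (limma adjusted p = 0.00684) and -1.25 (limma adjusted p = 0.022). Nupr1 lacked a value on 1 untreated array, where its spot was left out. The fourth gene called there, named after its value was seen, was Jdp2, a repressor related to ATF3, at -0.75 (limma adjusted p = 0.029). Atf3, a stress-induced repressor, had a polyI:C ratio of 1.68 (SE 0.35) that did not pass (limma adjusted p = 0.059). Without both arrays low in Xist, Gpt2 and Cebpg passed in the untreated ratio (limma adjusted p = 0.0321 and 0.0331), while Nupr1 and Jdp2 did not (0.0506 and 0.0718). The calls of Ddit4 (0.91, limma adjusted p = 0.109), Gpt2 in the difference (limma adjusted p = 0.144) and Atf5 (1.95, limma adjusted p = 0.12) were lost there. Without those arrays, limma called 0 of all genes in the polyI:C ratio, the difference and the response. With any 1 array left out, the Atf5 response stayed between 2.06 and 2.36 and was not called, where limma called 0 to 23 genes. Nor was it called with slide as a fixed block (limma adjusted p = 0.0977), the processed signals (0.105) or no filter on dim probes (0.0715). The difference of Gpt2 was likewise not called with any 1 array left out, with slide as a fixed block (limma adjusted p = 0.122), median centring (0.0723), the processed signals (0.0511) or no filter on dim probes (0.051). With slide as a fixed block, limma called 0 of all genes in the difference. Ddit4 was called with 1 of the 6 arrays left out and not with the other 5, nor with the processed signals (limma adjusted p = 0.105) or no filter on dim probes (0.0616). The processed signals also ended the calls of Nupr1 and Jdp2 (limma adjusted p = 0.0637 and 0.0631), and median centring that of Jdp2 (0.107). The untreated calls of Gpt2 and Cebpg passed with median centring, the processed signals, no filter on dim probes, the mean over probes and slide as a random block, and with each array left out.

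In the untreated ratio 13.0% of all genes were called. Of 12 other serine, glycine and one-carbon enzymes, 1 was called, Gldc of the glycine cleavage system, in the untreated ratio (limma adjusted p = 0.0151, and 0.0303 over the 4 arrays not low in Xist). Gldc was not well above background in the untreated pool on any array, above it in 2 of 3 untreated Cdk6-/- samples, and at least 1.89-fold higher there. Mthfd2, the mitochondrial folate enzyme downstream of Shmt2, above background in 2 of 3 untreated samples of each genotype, had the smallest p of the list in the response of Cdk6-/- samples, 1.55 (SE 0.43, limma adjusted p = 0.231), with a 2.13-fold difference between the pools. Psph, which completes serine synthesis, had a response of 0.52 (SE 0.57, limma adjusted p = 0.852) and overlapping pools. Of 18 cytosolic tRNA synthetases, 1 was called, Yars, with an untreated ratio of 0.76 (SE 0.19, limma adjusted p = 0.0265, and 0.0745 without both arrays low in Xist). Sars, the seryl-tRNA synthetase, had the smallest p in the response, 1.60 (SE 0.32, limma adjusted p = 0.105). Of 14 other amino acid synthesis enzymes and 12 amino acid transporters none was called by limma in any of the 4 comparisons, and in the response 2 of each had an unadjusted p under 0.05. Their smallest p values there belonged to Ass1 of arginine synthesis (1.40, SE 0.32, limma adjusted p = 0.144) and to Slc7a5, the leucine transporter LAT1 (1.64, SE 0.36, limma adjusted p = 0.137).

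Of 18 genes of the unfolded protein response, 1 was called higher and 1 lower in the untreated ratio, where 13.0% of all genes were called. They were Atf6, an endoplasmic reticulum stress sensor (0.75, SE 0.21, limma adjusted p = 0.0455), and Edem1, which directs misfolded glycoproteins to degradation (-0.87, SE 0.23, limma adjusted p = 0.0352). Neither passed without both arrays low in Xist (limma adjusted p = 0.0666 and 0.0858), with slide as a random block (0.0662 and 0.0573) or with no filter on dim probes (0.061 and 0.0547), and Atf6 was not called with any 1 array left out. Edem1 was also not called with median centring (-0.54, limma adjusted p = 0.117) or the processed signals (0.107). Hspa5, the chaperone BiP, had a response in Cdk6-/- samples of -0.11 (SE 0.31, limma adjusted p = 0.956), and its pools differed by 0.609-fold. Xbp1, the transcription factor activated by IRE1, had a response of 0.05 (SE 0.35, limma adjusted p = 0.982), and its pools differed by 0.607-fold. Of the 18 genes of the list, 6 were higher with polyI:C and 0 lower without overlap in Cdk6-/- samples, and 8 were higher and 5 lower in the pools, with a median log2 change of 0.33 in Cdk6-/- samples and 0.41 in the pools. Over all 22630 genes, 2070 were higher and 1736 lower in Cdk6-/- samples, and 4336 were higher and 5219 lower in the pools. The higher ones of the list in the pools included the chaperone gene Hyou1 and the disulfide isomerase gene Pdia4 (3.08-fold), both named after their values were seen. Hyou1 was not well above background in the untreated pool on any array, and was above it in 1 of 3 untreated Cdk6-/- samples. Its polyI:C pool exceeded the untreated pool at least 2.96-fold.

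Where a list held no call, its gene with the smallest p gives the scale. In the polyI:C ratio these were Gcn1 at -0.63, Mthfd1 at -0.67, Ass1 at -0.47, Slc38a1 at -0.29, Wars at -0.57 and Dnajb9 at 0.46 (limma adjusted p from 0.199 to 0.54). In the untreated ratio they were Ass1 at -0.52 and the arginine transporter gene Slc7a1 at 0.56 (limma adjusted p = 0.0684 and 0.0506). In the difference they were Mthfd1l at -0.83, Cth at -0.70, Slc43a2 at 0.90, Wars at -0.87 and Xbp1 at 0.77 (limma adjusted p from 0.127 to 0.191). Cth was above background in 1 of 3 Cdk6-/- samples with polyI:C and in 1 of 3 untreated. In the response of Cdk6-/- samples the remaining ones were Eif2s1, the phosphorylated subunit of eIF2, at 0.90 and Sdf2l1, an endoplasmic reticulum chaperone cofactor, at 1.54 (limma adjusted p = 0.343 and 0.112).

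Read by list, the pools held more genes that were higher with polyI:C without overlap than the Cdk6-/- samples did. Among the serine, glycine and one-carbon enzymes it was 2 of 12 in Cdk6-/- samples and 9 of 12 in the pools, and among the tRNA synthetases 5 of 18 in Cdk6-/- samples and 13 of 18 in the pools. The other lists held 1 to 6 such genes in Cdk6-/- samples and 4 to 8 in the pools. Over all genes the share was 9.15% in Cdk6-/- samples and 19.2% in the pools. Among the other ATF4 and CHOP targets it was 16.7% and 22.2%, the latter near the share over all genes. The median log2 change of the tRNA synthetases was 0.55 in Cdk6-/- samples and 0.81 in the pools, against 0.033 and -0.0024 over all genes. The counts do not compare the genotypes, since 3 hybridisations of 1 pool differ only technically. Over the 7 lists, medians of the log2 polyI:C ratio ran from -0.21 (tRNA synthetases) to 0.39 (other ATF4 and CHOP targets), and those of the untreated ratio from -0.11 (unfolded protein response) to 0.09 (tRNA synthetases). Medians of the difference ran from -0.30 (tRNA synthetases) to 0.55 (other ATF4 and CHOP targets), and those of the response in Cdk6-/- samples from 0.12 (transporters) to 0.55 (tRNA synthetases), against 0.04 and 0.03 over all genes.

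**Figure D4:**
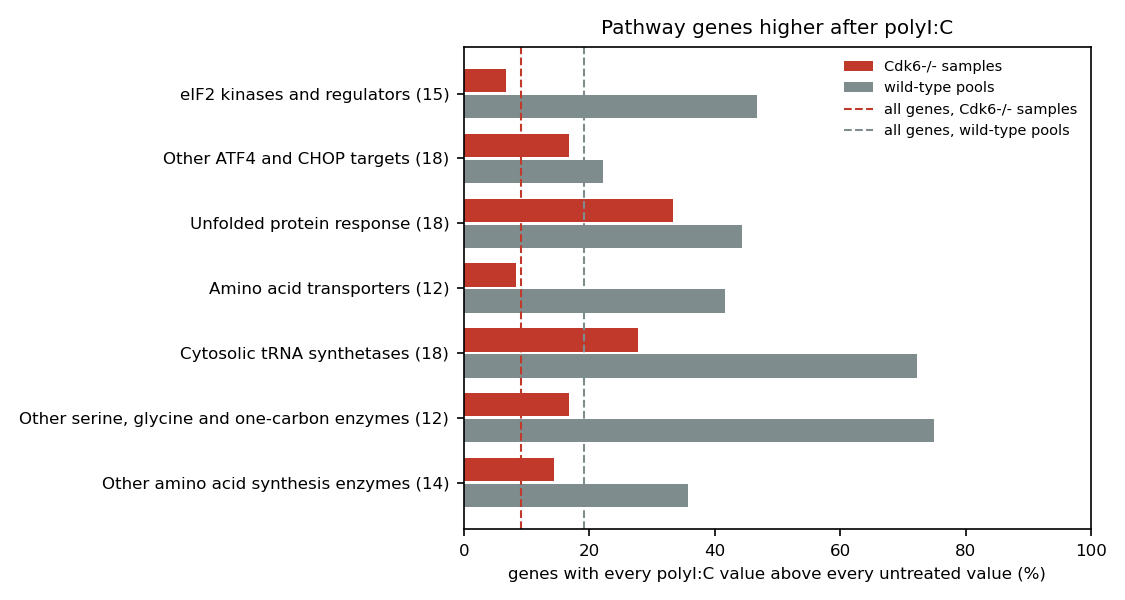
Share of the genes tested in each pathway list (number in brackets) whose polyI:C values all lie above the untreated values, in Cdk6-/- samples (red bars) and in hybridisations of the wild-type pools (grey bars). Dashed lines mark the share over all genes, 9.15% in Cdk6-/- samples and 19.2% in the pools; the bars of the serine, glycine and one-carbon enzymes and of the tRNA synthetases are the longest in the pools, at 75% and 72.2%.

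The members differed among themselves in how their ratios ran over the 6 arrays. Likeness was measured as the root mean square difference of log2 ratios between 2 genes, and it describes these arrays only. By brightest probe, the closest pair was Atf4 and Ppp1r15a at 0.317, followed by Asns and Psat1 at 0.381 and Asns and Shmt2 at 0.383. The ratios of Atf4 and Psat1 depended on the probe, so their places here hold for the brightest probe only. Chac1 was the farthest member from each of the other 8, with its nearest member, Ppp1r15a, at 1.22. Among 106 genes of the pathway lists, the nearest to Chac1 was Atf5 at 0.795. The nearest to Shmt2 was the glycyl-tRNA synthetase gene Gars at 0.13, to Phgdh the eIF2B subunit gene Eif2b2 at 0.158, and to Asns the cysteinyl-tRNA synthetase gene Cars at 0.171. Psat1 was nearest to Pdia6 at 0.181, Atf4 to Bbc3 at 0.23, Ppp1r15a to Ddit4 at 0.277, Trib3 to Gdf15 at 0.378 and Ddit3 to Sesn2 at 0.538.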

How the data were processed

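The 10 members, the pathway lists and the marker lists were chosen with earlier results of these data known. Per the labels' protocols, total RNA was pre-amplified with the TransPlex WTA2 kit and labelled with platinum-coupled dyes. Per the file headers, Agilent Feature Extraction 11.5.1.1 read the arrays. In each channel the deposited scanner files give the median intensity of a spot and of its background, a processed intensity, a log10 ratio of red to green, and flags. The authors' deposited value table is in log2; set against the scanner files, it matched processed Cy5 over processed Cy3 to 2.52e-06 or better, with no further centring, which fixed its direction as Cdk6-/- over wild type. The authors' own tests are not stated in the labels.

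Median signals were corrected with normexp (offset 50) and normalized by loess within arrays in limma 3.58.1 (R 4.3.3, statmod 1.5.0). Outlying and non-uniform spots (0.657%) and control spots were left out, as were 23879 dim probes that were not well above background on all 3 arrays of a group in either channel. No spot was saturated. A gene with several tested probes was represented by the brightest. Accessions were named through RefSeq on GRCm38.p6 (22244 of 23839 matched), which also gave gene positions and promoter windows, and probes were not remapped. Ratios were fitted in 1 model over the 6 arrays, 1 mean for each group (4 residual degrees of freedom), and the response of Cdk6-/- samples on log2 Cy5 levels after Aquantile normalization. Adjusted p-values are limma's after Benjamini and Hochberg over all genes. With 3 against 3, an exact permutation test cannot go below 0.1. The number of arrays limits the precision. Members were all named; of each pathway list, up to 3 called genes per comparison or else the gene with the smallest p, plus the eIF2 kinases, Psph, Mthfd2, Atf3, Hspa5 and Xbp1. The fit was tested on simulated data. Alternatives were median centring, the processed signals, no filter on dim probes, the mean over probes, slide as a random or fixed block, no normalization between arrays, and leaving out each array. Leaving out both arrays low in Xist, and a fit of every tested probe, were chosen after seeing the data.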

Additional observations from a re-analysis of the deposited data

Results flagged for a closer look

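The log2 ratio of Chac1 differed between the treatments by 2.34 (polyI:C minus untreated, SE 0.46), and the limma test of that difference passed over all genes (adjusted p = 0.0349); over the alternatives its adjusted p ran between 0.0223 and 0.203. The log2 ratio of Phgdh was below 0 on all 3 polyI:C arrays and above 0 on all 3 untreated arrays, a difference of -0.70 that limma's test did not call (adjusted p = 0.265).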

How the results depend on the processing

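Chac1 kept its direction in all 4 comparisons under every alternative run. With median centring of each array, the median log2 ratio over all genes was 0.21 with polyI:C and 0.30 untreated, members called numbered 5 in the polyI:C ratio (all higher) and 6 in the untreated ratio (5 higher and Chac1 lower), and genes called numbered 2604 (2367 higher, 237 lower; otherwise 72 and 147) and 6206 (4869 higher, 1337 lower; otherwise 691 and 2248). There the polyI:C ratios of Phgdh (0.30) and Shmt2 (0.18) and the differences of Ddit3 (-0.065) and Psat1 (0.13) changed sign. With the processed signals and with no filter on dim probes, 0 members were called by limma in the untreated ratio and in the difference (Chac1 adjusted p = 0.0798 and 0.109, and 0.0748 and 0.0802); the second tested 36799 genes, and they gave 33 and 94 genes in the polyI:C ratio. With slide as a random block, 0 members were called in the untreated ratio (Chac1 adjusted p = 0.0518), and Psat1 had a ratio of -0.0006067 untreated and a difference of 0.001655. With slide as a fixed block, 0 members were called in the difference (Chac1 2.22, adjusted p = 0.131), which was -0.43 for Ddit3, -0.002341 for Asns and 0.017 for Psat1. The mean over probes gave Psat1 a polyI:C ratio of -0.21, and no normalization between arrays gave Atf4 a response of 0.047. Without both arrays low in Xist, 0 members were called in the difference, which was -0.95 for Ddit3, -0.14 for Asns and 0.17 for Psat1, and Psat1 had ratios of -0.005224 with polyI:C and -0.18 untreated. Leaving out 1 array at a time, members called ran from 0 to 1 in the untreated ratio and in the difference; the difference ran from -0.46 to 0.50 for Ddit3, -0.11 to 0.24 for Asns and -0.13 to 0.18 for Psat1, the polyI:C ratio from -0.006117 to 0.23 for Asns and -0.032 to 0.040 for Psat1, the untreated ratio from -0.14 to 0.22 for Asns, -0.18 to 0.13 for Psat1 and -0.047 to 0.21 for Shmt2, and the response of Ddit3 from -1.20 to 0.11. Genes called moved with the settings. With slide as a fixed block, limma called 0 genes in the difference (4439 at an unadjusted p under 0.05) and 17 in the response. Without both arrays low in Xist it called 0 in the polyI:C ratio, the difference and the response (3516, 4553 and 4129 at an unadjusted p under 0.05). Under the other settings with all arrays, 16 to 128 were called in the response and 176 to 555 in the difference; leaving out 1 array gave 0 to 23 and 6 to 378, 7 to 218 in the polyI:C ratio and 1376 to 3426 in the untreated ratio. The cause was not tested. Signal near background left Slc7a11 untested. No paired analysis was possible because the labels give the treated and untreated samples no shared replicate numbers.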
